A study of Mus musculus with 14 samples.

Results

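The subject is whether the left ventricle answered aortic banding (AB) differently in the 2 genotypes of the study. For each gene the log2 change from Sham to AB in wild type (WT) hearts was subtracted from the log2 change in hearts labelled CXCR5-/-. A value above 0 therefore marks a gene whose level moved further up, or less far down, in hearts labelled CXCR5-/-, and a value of 1 is a doubling of the ratio of AB to Sham. All 14 arrays of the series entered, and all 19937 of 19937 genes were compared, each through 1 probe set, the one with the highest mean among those with a single gene symbol. No measured difference chose the arrays or the 19937 genes compared. The gene lists and the genes named below were chosen with earlier results of these data known.

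Each genotype gave 3 Sham and 4 AB mice, all of them male, and each mouse had its own array. AB narrowed the ascending aorta and Sham mice underwent the operation without the narrowing, and left ventricles were taken 3 weeks later. WT mice were C57BL/6 animals from a breeder, and it is not stated that they were littermates of the knockout. CXCR5-/- mice lacked the receptor in every cell: its coding region had been replaced with a neomycin resistance gene in embryonic stem cells of another mouse strain, and the line was backcrossed to C57BL/6. AB mice were kept only if the flow speed across the band passed a set limit. The sources used here give no ages.

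CXCR5 is the receptor of the chemokine CXCL13 and is best known for guiding B cells and follicular T cells into lymphoid follicles. Pressure overload makes heart muscle return to a fetal gene programme, reduces the genes of fat oxidation, and brings fibroblasts and macrophages into play, which lay down matrix, present antigen on major histocompatibility complex (MHC) class II molecules and answer interferons. A difference of responses asks whether that reaction had another size without the receptor, and it carries the error of all 4 group means.

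The Cxcr5 probe set (10592888) lay at log2 levels of 3.03 to 3.30 on the 7 WT arrays and 3.85 to 4.47 on the 7 arrays labelled CXCR5-/-, against the direction of a knockout. It could not be placed relative to the part of the gene that was replaced and is therefore no check of the labels, and the arrays are called labelled CXCR5-/-. Ventricular muscle genes Myl2 (12.35 to 12.66) and Myh6 (12.25 to 12.68) were high on every array. Some arrays were high in markers of other tissues. Myl7 encodes an atrial myosin light chain and was at 9.09 on WT Sham replicate 1 and at 9.68 and 8.82 on labelled CXCR5-/- Sham replicates 1 and 2, and at 5.65 to 7.49 elsewhere. The mean of 4 atrial markers was highest, at 1.20, on labelled CXCR5-/- AB replicate 4, where the atrial gene Bmp10 lay at 6.78 against 3.02 to 3.32 elsewhere, and was 1.12, 0.83 and 0.57 on the 3 Sham arrays high in Myl7. Alb, the albumin gene of liver, lay at 9.14 and 8.68 on WT Sham replicates 1 and 3 and at 9.73 and 8.38 on labelled CXCR5-/- AB replicates 1 and 3. Ucp1, a gene of brown fat, lay at 6.69 on labelled CXCR5-/- Sham replicate 2 and at 3.57 to 4.50 elsewhere. Alternatives without the 3 Sham arrays highest in Myl7, without the 4 arrays with Alb above 8, and without each single array were computed for every named gene and gene list, and values from them are given beside the results they moved most.

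After the Benjamini-Hochberg adjustment in limma the difference of responses passed for 0 of 19937 genes (0.0%). The smallest adjusted p was 0.804, for the chemokine gene Ccl19, and it was 0.9998 for the next genes. At an unadjusted p under 0.05 there were 574 genes, 2.88% of those tested, 290 with a higher response in hearts labelled CXCR5-/- (1.45%) and 284 with a lower one (1.42%). On average the test would call 5% of genes at that level if no response differed. Genes are not independent, which widens the spread of the share around that value. Over all genes the median difference was -0.0075, and 9570 genes (48.0%) lay above 0.

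How large a difference may have been missed can be read from the 95% intervals. With a median standard error (SE) of 0.16 the median interval reached 0.34 to either side. For 12954 genes (65%) the interval lay wholly within 0.5 of 0, and for 19651 (98.6%) within 1, a change of ratio by a factor of 2. At the median SE a single gene would have needed a difference of 1.10 to pass alone. Small differences in many genes could therefore have gone unseen, while the interval left out a change of that factor for nearly all genes.

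The genes that answered AB moved largely in the same direction in both genotypes. Of 1016 genes that rose in WT hearts (5.1% of those tested), 852 also rose in hearts labelled CXCR5-/-, and 1004 had a change above 0 there. Of 842 genes that fell in WT hearts (4.22%), 696 also fell in hearts labelled CXCR5-/-, where 1168 genes fell in all (5.86%) and 1650 rose (8.28%). Either way, 1858 genes passed in WT (9.32%) and 2818 in hearts labelled CXCR5-/- (14.1%). No gene passed in opposite directions. Genes that rose in WT hearts had a median change of 0.54 in WT and 0.62 in hearts labelled CXCR5-/-, and those that fell had medians of -0.52 and -0.51. The 1650 genes that rose in hearts labelled CXCR5-/- had medians of 0.54 there and 0.39 in WT. Of them, 1632 had a change above 0 in WT and 852 passed there. The 1168 that fell had medians of -0.49 and -0.43, and 696 passed in WT. Across the 19937 genes, which were all measured on the same arrays and are not independent, the 2 sets of changes had a Pearson correlation of 0.83. The larger count in hearts labelled CXCR5-/- is not a test of a larger response. Without the 4 arrays with Alb above 8, a choice made after the data were seen, the counts were 353 in WT and 1507 in hearts labelled CXCR5-/-. Without the 3 Sham arrays highest in Myl7, 844 genes passed in hearts labelled CXCR5-/-. These settings leave 1 WT Sham array and 1 Sham array labelled CXCR5-/-, respectively, which is assumed to vary like the other groups. Of the calls given below for single genes, the first setting ended those in WT of Ccl19, Bmp2, Ackr2, Cxcl10, Lyz2, Ctss, C1qb, Serping1, Sprr1a, Fhl1, Vegfd, Dixdc1 and Scn4b, and the second those of Bmp2 and Fhl1 in WT and of Edn1 in hearts labelled CXCR5-/-.

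**Figure D1:**
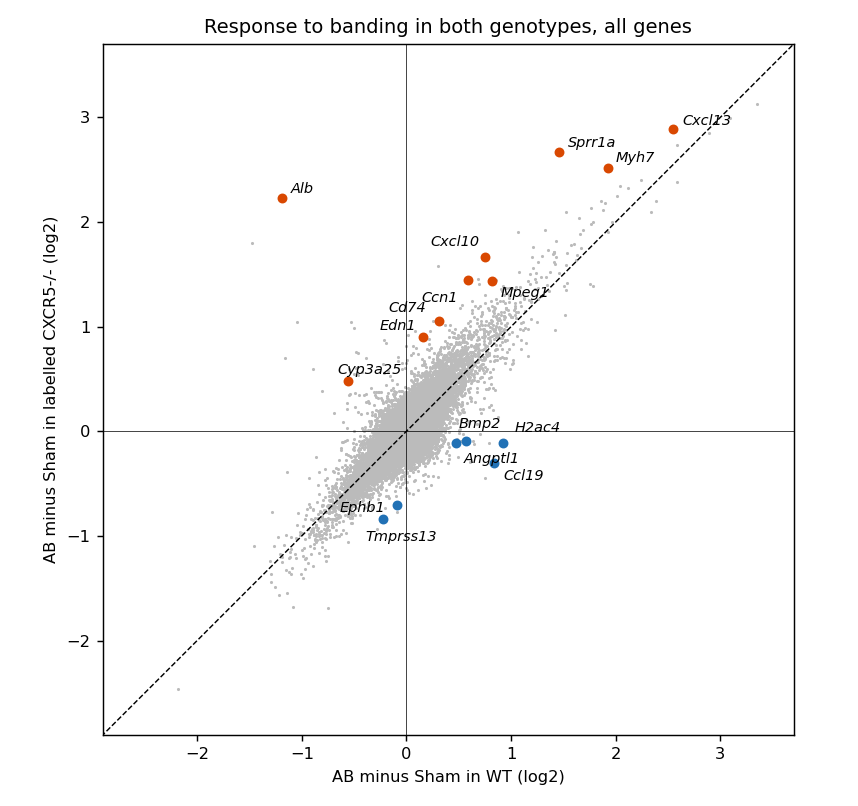
Log2 change from Sham to AB in WT hearts (x axis) against that in hearts labelled CXCR5-/- (y axis), 1 point per gene for 19937 genes, with equal changes on the dashed line. Named genes above the line (orange) had a higher response in hearts labelled CXCR5-/- and those below it (blue) a lower one; Ccl19, at 0.84 and -0.31, lies farther below the line than Angptl1 and Bmp2.

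The best-supported lower response was that of Ccl19, which encodes a ligand of the receptor CCR7 and draws T cells and dendritic cells. Its log2 level (probe set 10512322, chromosome 4) was 7.15, 7.47 and 7.18 on the WT Sham arrays and 8.12, 7.94, 8.25 and 8.12 on the WT AB arrays. On the arrays labelled CXCR5-/- it was 8.49, 7.78 and 8.16 after Sham and 7.58, 7.83, 7.85 and 8.09 after AB. WT Sham hearts were the low group, below every other array, while the other 3 groups overlapped. Ccl19 rose in WT by 0.84 (adjusted p = 0.00139) and its change was -0.31 in hearts labelled CXCR5-/- (adjusted p = 0.207), a difference of -1.15 (SE 0.21, 95% interval -1.59 to -0.70, unadjusted p = 4.04e-05 in the limma fit). Ccl19 has 4 probe sets on the array, of which this one was the brightest. The other 3 gave differences of -0.44 (SE 0.90), -0.35 (SE 0.40) and -0.10 (SE 0.23), and the mean of the 4 gave -0.51. With that mean the rise in WT did not pass (adjusted p = 0.199 in limma). Which of them measures the working gene rather than a copy was not tested.

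Angptl1 encodes an angiopoietin-like secreted protein. Its log2 level (probe set 10350840, chromosome 1) was 5.09, 4.91 and 5.03 after Sham and 5.42, 5.46, 5.59 and 5.48 after AB in WT. In hearts labelled CXCR5-/- it was 5.06, 5.07 and 5.15 after Sham and 4.84, 4.97, 4.94 and 5.18 after AB. All WT AB arrays were higher than all other arrays. The difference was -0.59 (SE 0.13, 95% interval -0.86 to -0.31). It ran from -0.69 to -0.54 over all alternatives and was -0.59 without the 4 arrays with Alb above 8. Angptl1 was also 1 of 9 genes (0.0451%) that differed between genotypes after AB (-0.50, adjusted p = 0.0408 in limma). Its change between the Sham groups was 0.08. The contrast after AB is part of the difference of responses and so is no separate support. This call is given for all arrays only.

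Bmp2, a growth factor gene of the TGF-beta family, had the same shape. Its log2 level was 4.56, 4.75 and 4.61 after Sham and 5.21, 5.15, 5.23 and 5.24 after AB in WT, and 4.62, 4.84 and 4.53 after Sham and 4.41, 4.53, 4.32 and 5.01 after AB in hearts labelled CXCR5-/-. WT AB arrays lay above all others, with labelled CXCR5-/- AB replicate 4 nearest to them. The difference of -0.66 (SE 0.19, 95% interval -1.05 to -0.26) was -0.34 without the 4 arrays with Alb above 8, and the rise of 0.57 in WT also lost its call without WT Sham replicate 3. Ackr2, which encodes a scavenger receptor of inflammatory chemokines, rose in WT by 0.70 and changed by 0.21 in hearts labelled CXCR5-/-, with a difference of -0.49 (SE 0.16, 95% interval -0.82 to -0.15). Of 13 chemokine receptor genes measured, 9 had a difference below 0, and 5 did without WT Sham replicate 3. Among all genes, 48.0% lay above 0 with all arrays.

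**Figure D2:**
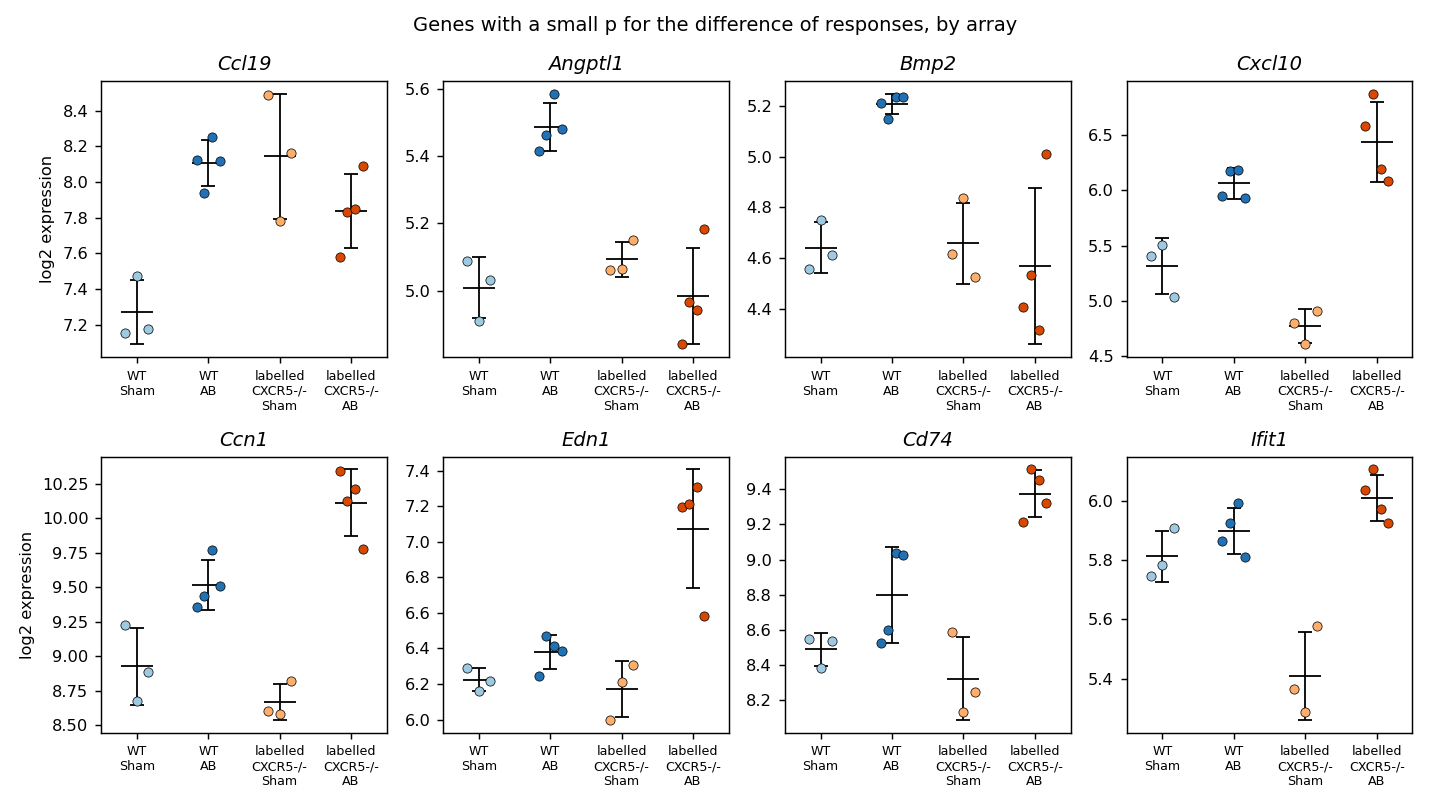
Log2 expression (y axis) of 8 genes in the 4 groups (x axis). A point is an array, and bars give the mean and SD of a group (3 Sham or 4 AB mice). WT Sham hearts are low for Ccl19, WT AB hearts are high for Angptl1 and Bmp2, and labelled CXCR5-/- AB hearts are high for Ccn1 (9.78 to 10.34), Cd74 (9.21 to 9.51) and Edn1 (6.58 to 7.31).

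Cxcl10 encodes an interferon-induced chemokine that attracts T cells, and its response was higher in hearts labelled CXCR5-/-. Its log2 level (probe set 10531415, chromosome 5) was 5.40, 5.51 and 5.03 after Sham and 5.95, 6.18, 6.19 and 5.93 after AB in WT. In hearts labelled CXCR5-/- it was 4.80, 4.60 and 4.91 after Sham and 6.59, 6.88, 6.19 and 6.09 after AB. Sham hearts labelled CXCR5-/- were the lowest of all, and their AB hearts ran from the WT AB level upwards. Cxcl10 rose by 0.75 in WT and by 1.67 in hearts labelled CXCR5-/-, a difference of 0.92 (SE 0.23, 95% interval 0.43 to 1.40). The hearts labelled CXCR5-/- were at -0.54 against WT after Sham and at 0.37 after AB, and neither passed. The rise in WT lost its call without WT Sham replicate 3. Cxcl16, another chemokine gene, had a difference of 0.40 (SE 0.18, 95% interval 0.02 to 0.77). The 23 inflammatory chemokines as a list showed no shift, with a median of 0.02 and 12 genes above 0, and of -0.089 with 10 above 0 without the 4 arrays with Alb above 8.

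Genes induced by interferons leaned one way. Of 36 measured, 34 had a difference above 0, where 48.0% of all genes did, with a median of 0.18 and quartiles of 0.08 and 0.24. None passed, and 5 had an unadjusted p under 0.05 with a higher response (1.45% of all genes did). In the separate responses, 3 of the 36 rose in WT (5.1% of all genes did) and 13 in hearts labelled CXCR5-/- (8.28%). None of the 36 fell. The genes of the list respond to shared signals and are not independent. The mean of the list, centred per gene, was -0.15 in Sham hearts labelled CXCR5-/- and -0.05 in WT Sham hearts. After AB it was 0.12 and 0.03. Per array it ran from -0.19 to -0.09 after Sham and from -0.02 to 0.24 after AB in hearts labelled CXCR5-/-. In WT it ran from -0.14 to 0.05 and from -0.04 to 0.10. The Sham groups overlapped, and so did the AB groups. Without the 4 arrays with Alb above 8 the median was 0.16 with 30 genes above 0, and without the 3 Sham arrays highest in Myl7 it was 0.26 with 34 above 0.

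Ifit1 and Ifit3 encode proteins that bind viral RNA and had the smallest p values of this list. The log2 level of Ifit1 was 5.75, 5.78 and 5.91 after Sham and 5.87, 5.92, 5.99 and 5.81 after AB in WT, and 5.37, 5.29 and 5.58 after Sham and 6.04, 6.11, 5.97 and 5.92 after AB in hearts labelled CXCR5-/-. The Sham hearts labelled CXCR5-/- stood below all the rest, and the AB groups overlapped. Its difference was 0.51 (SE 0.13, 95% interval 0.24 to 0.79). Ifit3 had a difference of 0.62 (SE 0.18, 95% interval 0.24 to 1.0). Oas1a, which encodes a sensor of double-stranded RNA, and Irf7, a transcription factor of the interferon pathway, had differences of 0.40 (SE 0.13) and 0.36 (SE 0.14). Rtp4 had one of 0.37 (SE 0.17). Gbp4, Gbp5 and Stat2 had differences of 0.03, 0.09 and 0.04.

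Ifit1 and Ifit3 had the smallest p values of the interferon list, and Cxcl10, also induced by interferon, that of the inflammatory chemokines. The upstream sequences of Cxcl10, Ifit1 and Ifit3 are shown for that reason. They are the 250 bases before the RefSeq start in GRCm38.p6, 5′ to 3′ on the gene's strand, at chr5:92348890-92349139 (minus strand), chr19:34640639-34640888 (plus strand) and chr19:34583279-34583528 (plus strand). Capitals mark each stretch with 2 copies of GAAA parted by 2 bases, or of TTTC for the other strand, the core of the interferon-stimulated response element.
Cxcl10: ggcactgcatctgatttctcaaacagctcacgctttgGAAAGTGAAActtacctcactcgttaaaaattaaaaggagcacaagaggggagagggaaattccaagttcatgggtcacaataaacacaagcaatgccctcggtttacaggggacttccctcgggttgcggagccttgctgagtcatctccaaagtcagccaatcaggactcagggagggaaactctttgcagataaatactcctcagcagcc
Ifit1: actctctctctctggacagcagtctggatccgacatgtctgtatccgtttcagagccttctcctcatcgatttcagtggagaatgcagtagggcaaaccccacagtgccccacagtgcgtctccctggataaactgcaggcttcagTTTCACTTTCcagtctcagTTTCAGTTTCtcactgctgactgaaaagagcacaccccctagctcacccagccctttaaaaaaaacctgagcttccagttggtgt
Ifit3: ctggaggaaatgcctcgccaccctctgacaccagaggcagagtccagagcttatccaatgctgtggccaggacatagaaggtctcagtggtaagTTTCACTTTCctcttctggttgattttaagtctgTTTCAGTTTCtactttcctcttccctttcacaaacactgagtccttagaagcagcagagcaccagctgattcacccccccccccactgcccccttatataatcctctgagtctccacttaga

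Cxcl10 held 1 match, 213 bases before the start, and Ifit1 and Ifit3 held 2 each, at 104 and 85 and at 156 and 122 bases. Of all 32851 promoters in the table, 2.98% held a match on either strand in these 250 bases. By gene, 12 of the 26 interferon response genes with a promoter there did, and 3.46% of all genes. A match describes the letters and is no measurement of binding.

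MHC class II genes had the highest median of any list but that of liver genes. Of 8 measured, 7 had a difference above 0 (48.0% of all genes), with a median of 0.34, and 4 had an unadjusted p under 0.05 with a higher response (1.45% of all genes). These 4 are the genes of the molecule itself and its chaperone. Cd74, the invariant chain, was at log2 levels of 8.55, 8.38 and 8.54 after Sham and 8.53, 8.60, 9.04 and 9.03 after AB in WT, and of 8.59, 8.13 and 8.25 after Sham and 9.21, 9.51, 9.45 and 9.32 after AB in hearts labelled CXCR5-/-. The AB hearts labelled CXCR5-/- lay above every other array. In Cd74 the difference was 0.75 (SE 0.20, 95% interval 0.33 to 1.16), and it stayed between 0.65 and 0.88 in all alternatives.

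H2-Ab1, a chain of the class II molecule that binds peptide, lay at 9.09, 8.72 and 8.76 after Sham and 8.92, 9.34, 9.31 and 9.31 after AB in WT, and at 9.0, 8.55 and 8.66 after Sham and 9.76, 10.03, 9.60 and 9.63 after AB in hearts labelled CXCR5-/-. The difference was 0.65 (SE 0.20, 95% interval 0.23 to 1.07), and again the AB hearts labelled CXCR5-/- were above all others. H2-Aa and H2-Eb1, further chains of class II molecules, had differences of 0.66 (SE 0.21) and 0.59 (SE 0.18). The other 4 members had differences of -0.09 to 0.08. Among them was Ciita, the transcription factor that switches class II genes on, at 0.08 (SE 0.13). The list's median without the 4 arrays with Alb above 8 was 0.27 with 7 genes above 0 and 1 at an unadjusted p under 0.05. Without the 3 Sham arrays highest in Myl7 it was 0.28, with 6 above 0 and 4 at that level, and without labelled CXCR5-/- Sham replicate 2, the array high in Ucp1, 0.24 with 5 above 0.

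Macrophage genes pointed the same way with smaller differences. Of 16 markers, 15 had a difference above 0 (48.0% of all genes did), with a median of 0.17. Only Cd14, a receptor for bacterial lipopolysaccharide, had an unadjusted p under 0.05 (0.47, SE 0.16, 95% interval 0.13 to 0.80). Of all genes, 1.45% had such a p with a higher response. Of the 16, 5 rose in WT (5.1% of all genes did) and 9 in hearts labelled CXCR5-/- (8.28%). Cd68, of lysosomes, rose by 0.86 and 1.09, and Lyz2, lysozyme, by 0.55 and 0.86, with differences of 0.23 (95% interval -0.19 to 0.65) and 0.31 (95% interval -0.11 to 0.73). The rise of Lyz2 in WT lost its call without WT AB replicate 3 or without WT Sham replicate 2 or 3. Per array the mean of the list, centred per gene, ran from -0.34 to -0.24 after Sham and from 0.11 to 0.37 after AB in hearts labelled CXCR5-/-, and from -0.20 to -0.11 and from 0.10 to 0.18 in WT. The AB groups overlapped, and labelled CXCR5-/- AB replicate 2 was the highest array. In whole ventricle more cells of a type and more RNA per cell cannot be told apart.

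Mpeg1, Ctss, Il10ra and Stk17b were among the 15 genes with the smallest p for a higher response, and were taken by that rank and not as a group. Mpeg1, which encodes a pore-forming protein of phagocytes, was at log2 levels of 6.16, 6.02 and 5.98 after Sham and 7.10, 6.93, 6.76 and 6.68 after AB in WT, and of 5.97, 5.69 and 5.91 after Sham and 7.32, 7.48, 7.33 and 7.06 after AB in hearts labelled CXCR5-/-. It rose in both genotypes, by 0.81 and 1.44, a difference of 0.63 (SE 0.17, 95% interval 0.27 to 0.98), and the AB groups overlapped at their edges. Ctss, a lysosomal protease that trims the invariant chain, rose by 0.69 and 1.40, a difference of 0.71 (SE 0.20, 95% interval 0.29 to 1.13). The difference of Il10ra, a receptor chain for interleukin-10, was 0.49 (SE 0.14). Cybb, a subunit of the phagocyte oxidase taken from the list of redox genes, had a difference of 0.60 (SE 0.25). Stk17b, a kinase gene, lay at 7.35 to 7.71 on the WT AB arrays and at 7.95 to 8.36 on the AB arrays labelled CXCR5-/-, and had a difference of 0.68 (SE 0.19, 95% interval 0.28 to 1.09). It too differed between genotypes after AB (0.74, adjusted p = 0.0408 in limma, given for all arrays only). That contrast is part of its difference of responses as well.

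Complement genes gave a median difference of 0.25, with 15 of 17 above 0 (48.0% of all genes were). C6, a component of the membrane attack complex, had a difference of 0.43 (SE 0.18, 95% interval 0.06 to 0.80), and Cd59a, an inhibitor of that complex, one of 0.36 (SE 0.15, 95% interval 0.03 to 0.68). Of the 17, 8 rose in WT (5.1% of all genes did) and 11 in hearts labelled CXCR5-/- (8.28%). C1qb, of the complement-starting C1q protein, rose by 0.69 and 1.01, and Serping1, an inhibitor of C1, by 0.62 and 0.82. Complement proteins are made in liver as well as in heart. The median of the list without the 4 arrays with Alb above 8 was 0.16, with 15 genes above 0.

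Markers of lymphocytes had medians below 0. Of 17 T and NK cell markers, 4 had a difference above 0 (48.0% of all genes did), with a median of -0.15. Of 12 B cell markers, 3 were above 0, with a median of -0.06. No marker of either list had an unadjusted p under 0.05, and their levels were low, with a median T and NK cell marker at the 37.9 percentile of probe sets. Cd3g, of the T cell receptor complex, had a difference of -0.63 with a wide interval (-1.47 to 0.21), and WT AB replicate 3 was high in it. The mean of the T and NK cell markers was also high on that array (0.33, others -0.003 to 0.02), and without it the median of the list was -0.056 with 5 of 17 above 0. Without WT Sham replicate 3 it was -0.063 with 7 above 0. The B cell markers had a median of 0.010 with 6 above 0 without WT AB replicate 4. All 7 mast cell markers had a difference above 0, with a median of 0.15, and the protease gene Cpa3 of mast cell granules had one of 0.62 (SE 0.21, 95% interval 0.18 to 1.07). It rose by 0.61 in hearts labelled CXCR5-/-, a call that ended without their Sham replicate 3. The mean of the mast cell markers was highest on labelled CXCR5-/- AB replicate 2 (0.38, others 0.08 to 0.13), and without that array the median was 0.034 with 5 of 7 above 0. It was 0.049 with 6 above 0 without WT Sham replicate 1. Neutrophil markers had a median of -0.08 (2 of 10 above 0), which was -0.011 (4 above 0) without WT AB replicate 1.

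**Figure D3:**
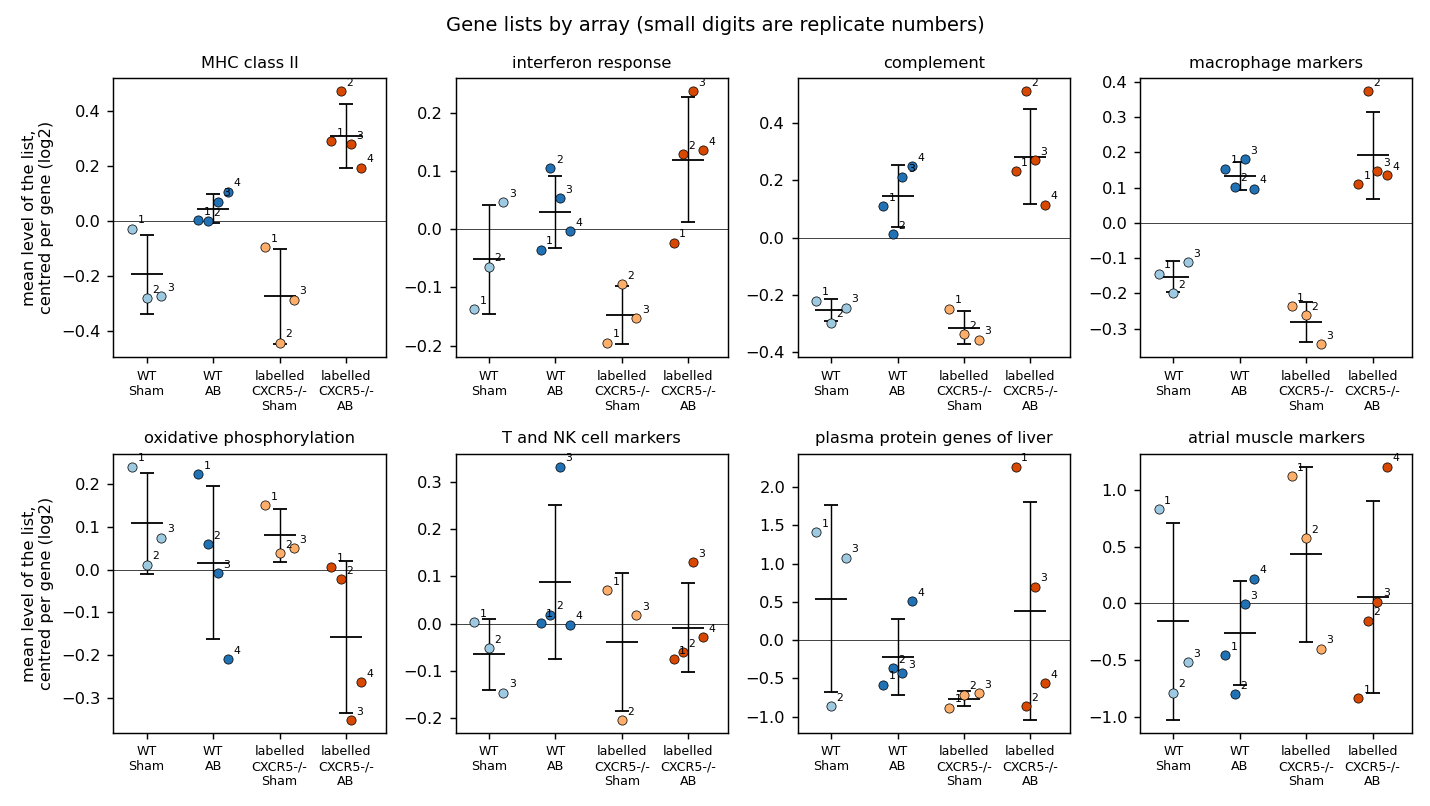
Mean level of 8 gene lists on each array (y axis, log2, each gene centred on its mean over the 14 arrays), by group (x axis), with bars for the mean and SD of 3 Sham or 4 AB mice and small digits for replicate numbers. For MHC class II genes the AB arrays labelled CXCR5-/- (0.19 to 0.47) lie above the other groups, while liver genes and atrial genes spread widely within groups.

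Liver genes had the highest median of the lists, and it rested on 4 arrays. All 8 plasma protein genes had a difference above 0 (48.0% of all genes did), with a median of 1.53. Of the 8, 6 had an unadjusted p under 0.05 with a higher response (1.45% of all genes did). Alb itself was at 3.42 with an interval from 0.00 to 6.83. The mean of the list lay at 1.41 and 1.08 on WT Sham replicates 1 and 3 and at 2.26 and 0.69 on labelled CXCR5-/- AB replicates 1 and 3, against -0.88 to 0.51 on the other 10 arrays. Without these 4 arrays all 8 differences lay below 0, with a median of -0.30.

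Cyp3a25, Tdo2 and Cyp4a12a, enzymes known from liver, were among the 15 smallest p values for a higher response. Their probe sets were dim, at the 17.3, 15.3 and 5.98 percentile of mean level. Cyp3a25 lay at 4.13, 3.61 and 3.29 after Sham and 3.39, 3.11, 2.82 and 3.15 after AB in WT, and at 3.02, 2.87 and 3.03 after Sham and 3.61, 3.30, 3.34 and 3.56 after AB in hearts labelled CXCR5-/-. WT Sham replicate 2, where Alb was low, was as high as the AB hearts labelled CXCR5-/-. Its difference was 1.04 (SE 0.23, 95% interval 0.56 to 1.52) with all arrays and 0.95 without the 4 with Alb above 8. Tdo2 had a difference of 0.89 with all arrays and 0.39 without those 4. Whether liver RNA has a part in these values was not tested.

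Ccn1 and Edn1, genes that respond to stretch and growth signals, had higher responses in hearts labelled CXCR5-/-. Ccn1 encodes a matricellular protein of the CCN family. Its log2 level (probe set 10502655, chromosome 3) was 9.23, 8.67 and 8.89 after Sham and 9.36, 9.44, 9.77 and 9.51 after AB in WT, and 8.60, 8.59 and 8.82 after Sham and 10.34, 10.13, 10.21 and 9.78 after AB in hearts labelled CXCR5-/-. It rose in both genotypes, by 0.59 and 1.44, and the AB hearts labelled CXCR5-/- were the highest of the arrays. The difference was 0.86 (SE 0.20, 95% interval 0.42 to 1.29), and was 0.44 without the 4 arrays with Alb above 8 and 0.55 without the 3 Sham arrays highest in Myl7. The rise in WT lost its call without WT Sham replicate 2 or 3. Among the other 5 CCN genes, Ccn5 had a difference of 0.33 (SE 0.14) and Ccn2, a partner of TGF-beta in fibrosis, one of 0.40 (SE 0.23, 95% interval -0.08 to 0.88), while Ccn3, Ccn4 and Ccn6 lay below 0.

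Edn1 encodes endothelin-1, a vasoconstrictor that also drives growth of heart muscle. It lay at 6.29, 6.16 and 6.22 after Sham and 6.25, 6.47, 6.42 and 6.38 after AB in WT, and at 6.00, 6.21 and 6.31 after Sham and 7.20, 7.21, 7.31 and 6.58 after AB in hearts labelled CXCR5-/-. Here 3 of 4 AB hearts labelled CXCR5-/- stood well above all other arrays, and replicate 4 stood apart from them. Edn1 rose in hearts labelled CXCR5-/- by 0.90 and its change in WT was 0.15, a difference of 0.75 (SE 0.20, 95% interval 0.33 to 1.16). It was 0.51 without the 4 arrays with Alb above 8. Among the 30 immediate early genes the median difference was -0.0005, with 15 above 0. Besides Ccn1, Gadd45b, a stress-induced regulator of growth arrest, had a difference of 0.69 (SE 0.23), and Nr4a3, a nuclear receptor gene, had the lowest, -0.72 (SE 0.38, 95% interval -1.54 to 0.09).

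Sprr1a, a stress protein gene of loaded heart muscle, had a larger difference with a wider error. Its log2 level was 5.34, 5.14 and 5.26 after Sham and 7.60, 6.33, 6.70 and 6.21 after AB in WT, and 5.46, 5.05 and 5.19 after Sham and 8.33, 8.21, 7.72 and 7.33 after AB in hearts labelled CXCR5-/-. Both AB groups were above both Sham groups, and WT AB replicate 1 reached into the range of the AB hearts labelled CXCR5-/-. It rose by 1.46 and 2.66, a difference of 1.21 (SE 0.38, 95% interval 0.41 to 2.0).

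Markers of hypertrophy rose in both genotypes and their differences had both signs. Of 12, 10 rose in WT (5.1% of all genes did) and 9 in hearts labelled CXCR5-/- (8.28%). The median difference was 0.14, with 9 above 0 (48.0% of all genes were). Myh7, the fetal myosin heavy chain, was at log2 levels of 8.96, 8.90 and 8.90 after Sham and 10.80, 10.51, 10.69 and 11.38 after AB in WT, and of 9.0, 9.02 and 8.76 after Sham and 11.78, 11.49, 11.53 and 10.97 after AB in hearts labelled CXCR5-/-. The AB groups overlapped through WT AB replicate 4 and labelled CXCR5-/- AB replicate 4. The difference was 0.59 (SE 0.26, 95% interval 0.05 to 1.14). Fhl1, a LIM protein of stretched muscle, had a difference of 0.53 (SE 0.22), and its rise of 0.66 in WT lost its call without WT Sham replicate 1. The natriuretic peptide genes Nppa and Nppb had differences of -0.39 (95% interval -0.78 to 0.01) and 0.37 (95% interval -0.24 to 0.98). Leaving out the 4 arrays with Alb above 8 gave hypertrophy markers a median of 0.01 with 6 genes above 0, and leaving out WT Sham replicate 1 gave 0.07 with 6 above 0.

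Respiratory chain genes leaned the other way. Of 73 subunit genes of oxidative phosphorylation, 65 had a difference below 0, where 48.0% of all genes lay above 0. The median of the 73 was -0.14, with quartiles of -0.21 and -0.07. An unadjusted p under 0.05 with a lower response was found for 2 of them (1.42% of all genes). Cox8b, a subunit of cytochrome c oxidase, had a difference of -0.42 (SE 0.20, 95% interval -0.84 to -0.01) and the ATP synthase subunit gene Atp5l one of -0.37 (SE 0.16, 95% interval -0.71 to -0.03). Atp5l has 4 further, dimmer probe sets, with differences of 0.27, -0.25, -0.19 and -0.16, and the mean of all 5 gave -0.14. Of the 73, 4 fell in WT (4.22% of all genes did) and 9 in hearts labelled CXCR5-/- (5.86% of all genes). Per array the centred mean was 0.01 to 0.24 after Sham and -0.21 to 0.22 after AB in WT, and 0.04 to 0.15 and -0.35 to 0.01 in hearts labelled CXCR5-/-. The AB groups overlapped, and the spread of this mean within a group (SD 0.15) was as large as the difference of its responses (-0.15). Without the 4 arrays with Alb above 8 the median was -0.22, with 69 genes below 0, and without the 3 Sham arrays highest in Myl7 it was -0.19, with 70 below 0. The Alb covariate gave -0.12 with 62 below 0. Single arrays mattered as well, since the median of the oxidative phosphorylation genes was -0.060 with 57 below 0 without WT AB replicate 1, -0.069 with 56 below 0 without labelled CXCR5-/- AB replicate 3, -0.090 with 59 below 0 without WT Sham replicate 2 and -0.23 with 70 below 0 without WT AB replicate 4.

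Most other lists of metabolism and excitation had medians nearer to 0. Of 27 genes of fatty acid uptake and oxidation, 17 fell in WT (4.22% of all genes did) and 19 in hearts labelled CXCR5-/- (5.86%). Their median difference was -0.04, with 21 below 0, where 48.0% of all genes lay above 0. Without the 4 arrays with Alb above 8 the median of fatty acid uptake and oxidation was -0.12 with 24 below 0, with the Alb covariate -0.11 with 23 below 0, without WT Sham replicate 1 -0.12 with 24 below 0, and without WT AB replicate 1 -0.11 with 22 below 0. Acadvl, an enzyme of long-chain fat breakdown, fell by 0.63 and 0.82, a difference of -0.19 (95% interval -0.44 to 0.06). The 17 genes of the citric acid cycle had a median of -0.01, and 13 of their intervals lay within 0.5 of 0. In the 18 potassium and sodium channel genes the median was -0.13, close to that of oxidative phosphorylation, with 14 below 0. Of the 18, 11 fell in WT (4.22% of all genes did) and 14 in hearts labelled CXCR5-/- (5.86%). Their highest difference was that of Scn4b (0.75), which is described below among genes of chromosome 9. The median of potassium and sodium channels was -0.078 without the 4 arrays with Alb above 8, -0.071 without the 3 Sham arrays highest in Myl7 and -0.065 without WT Sham replicate 1. Sarcomere genes were the tightest group, with a median of -0.004 and intervals within 0.5 of 0 for 17 of 19. Those of calcium handling had a median of -0.01, and Fkbp1b, which binds the ryanodine receptor, had a difference of 0.42 (SE 0.14, 95% interval 0.12 to 0.73).

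Lists of matrix genes had small median differences of responses, with single genes less tightly bounded in some of them. The 11 fibrillar collagens had a median of -0.06, with 3 above 0 and none at an unadjusted p under 0.05, and 7 of their intervals lay within 0.5 of 0. The 32 other collagens had a median of -0.02. Of 28 matricellular and elastic fibre genes, 20 rose in WT (5.1% of all genes did) and 22 in hearts labelled CXCR5-/- (8.28%). Their median difference was 0.10 with 18 above 0, and 7 of their intervals lay within 0.5 of 0. The sign of that median turned without the 4 arrays with Alb above 8 (-0.012, 10 above 0), with the Alb covariate (-0.025, 13 above 0), without WT AB replicate 2 (-0.024, 12 above 0) and without labelled CXCR5-/- Sham replicate 3 (-0.0025, 14 above 0), and it was 0.20 without the 3 Sham arrays highest in Myl7. Fibroblast markers had a median of 0.14, with 12 of 13 above 0 (48.0% of all genes were). Their median was 0.05 with 8 above 0 without the 4 arrays with Alb above 8. It was 0.042 with 7 above 0 with the Alb covariate and 0.044 with 9 above 0 without WT AB replicate 1. The 16 small leucine-rich proteoglycans (SLRPs), matrix proteins that bind collagen, are a family the study took up from these arrays, so that their values are not independent of that choice. The SLRPs had a median of 0.05, with 10 above 0 and none at an unadjusted p under 0.05, and of 0.15 with 12 above 0 without the 3 Sham arrays highest in Myl7. Their highest was Omd, osteomodulin, at 0.36 (95% interval -0.09 to 0.82), and their lowest was Chad, at -0.48. Of the 16 intervals, 6 lay within 0.5 of 0. Lum, Bgn, Dcn and Fmod had intervals of -0.21 to 0.85, -0.33 to 0.69, -0.10 to 0.65 and -0.93 to 0.44. In the TGF-beta family, Tgfb2 rose by 1.20 and 1.67, a difference of 0.47 (SE 0.20, 95% interval 0.04 to 0.90). Vegfd, a growth factor for lymphatic vessels, rose by 0.79 and 1.45, a difference of 0.66 (SE 0.21, 95% interval 0.22 to 1.10).

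**Figure D4:**
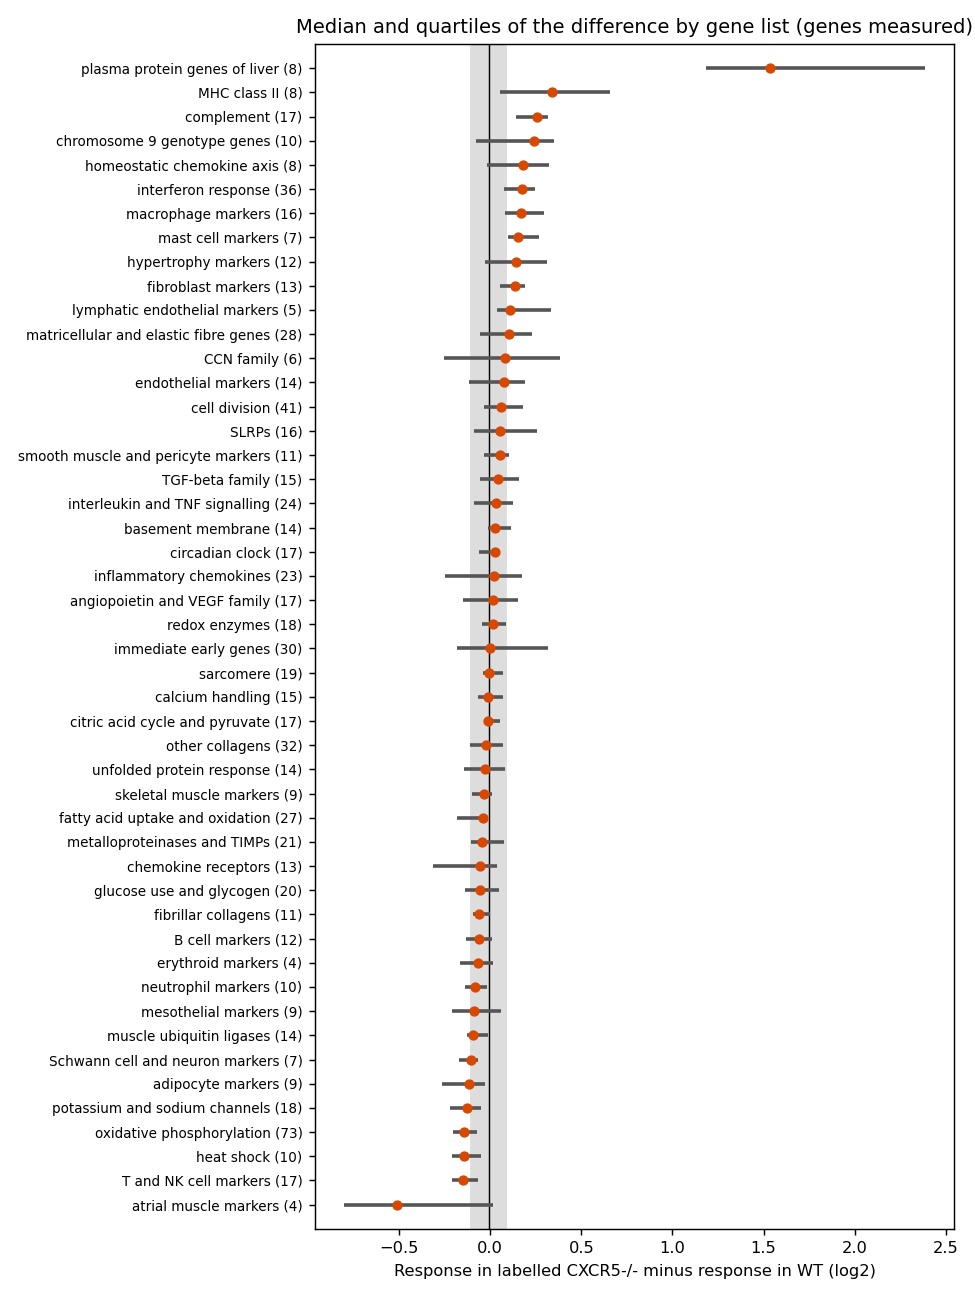
Median (orange points) and quartiles (grey lines) of the difference of responses (x axis, log2) for each of 48 gene lists (y axis, with the number of genes measured), beside the quartiles (grey band) and median (vertical line) of all 19937 genes. MHC class II genes at 0.34 and complement genes at 0.25 lie to the right of the band, oxidative phosphorylation at -0.14 and T and NK cell markers at -0.15 to its left. Heat shock genes at -0.14 also lie to its left, and atrial muscle markers, at -0.51, lie farthest left. Without the 3 Sham arrays highest in Myl7 the medians of heat shock genes and atrial muscle markers were -0.02 and -0.07.

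Several low p values belonged to genes on chromosome 9, the chromosome of Cxcr5. Among 10 genes there that separate the genotypes, a list chosen for a gap between the genotypes on these same arrays, 3 had an unadjusted p under 0.05 with a higher response (1.45% of all genes did) and 2 with a lower one (1.42%). Dixdc1, of Wnt signalling, lay at 5.41, 5.39 and 5.33 after Sham and 4.86, 4.96, 4.75 and 4.66 after AB in WT, and at 4.84, 4.65 and 4.72 after Sham and 4.58, 4.59, 4.71 and 4.74 after AB in hearts labelled CXCR5-/-. It fell in WT to the level that hearts labelled CXCR5-/- had after either operation, and its difference was 0.49 (SE 0.13, 95% interval 0.22 to 0.77). Scn4b, a sodium channel subunit, fell by 1.15 in WT and changed by -0.39 in hearts labelled CXCR5-/-, where it was already at 5.06 to 5.26 after Sham against 6.38 to 6.82 in WT, a difference of 0.75 (SE 0.22). The receptor kinase gene Ephb1 did the reverse. It lay at 5.27 to 5.48 after Sham and 5.13 to 5.38 after AB in WT, and at 5.97 to 6.35 and 5.28 to 5.64 in hearts labelled CXCR5-/-, a difference of -0.61 (SE 0.16, 95% interval -0.94 to -0.28). A second probe set of Ephb1 gave -0.11 (SE 0.23), and the mean of both -0.36. Il10ra, Ackr2 and Atp5l, described above, are also genes of chromosome 9. Probe sets were not placed on the genome, so which Atp5l probe set measures the chromosome 9 gene is not known.

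The protease gene Tmprss13 had a difference of -0.61 (SE 0.19, 95% interval -1.01 to -0.22). Its level was 6.17 to 6.76 after Sham and 5.34 to 5.79 after AB in hearts labelled CXCR5-/-, and 4.65 to 5.01 on all WT arrays. Whether sequence of the stem cell strain alters the binding of these probe sets was not tested.

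**Figure D5:**
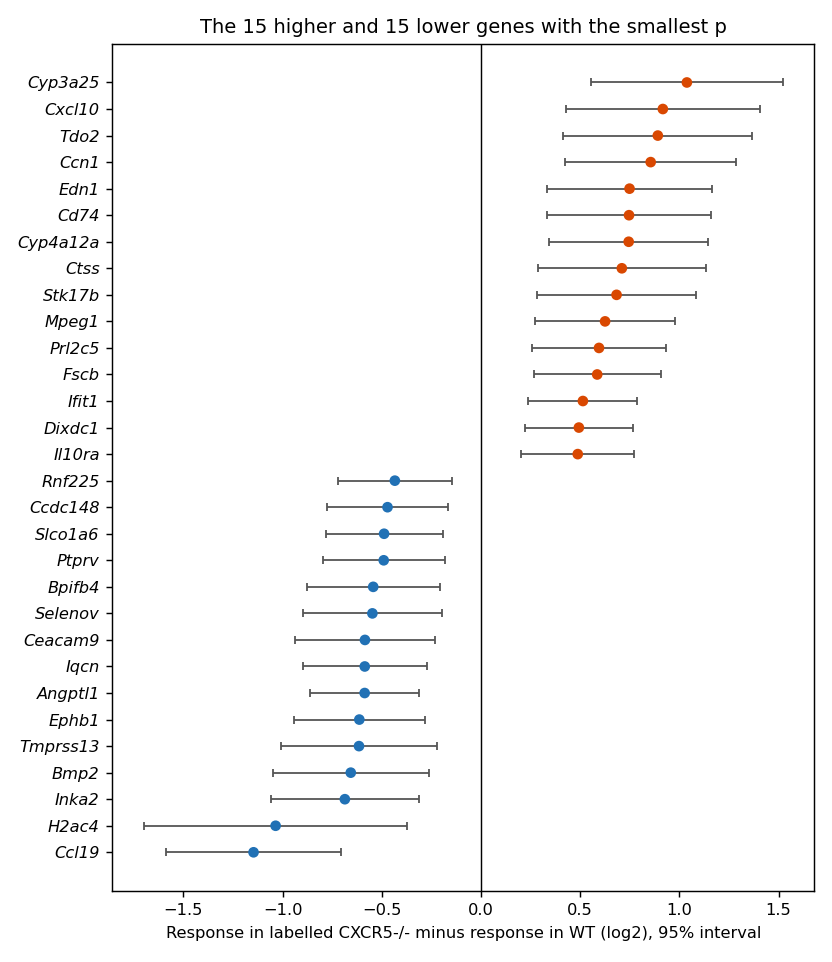
Response in hearts labelled CXCR5-/- minus response in WT (x axis, log2), with 95% intervals from limma, for the 15 genes with the smallest p in each direction (y axis). Every interval excludes 0, as the choice by p requires, and none passed after adjustment; H2ac4 has the widest, from -1.70 to -0.37.

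The remaining genes with the smallest p values were of scattered kinds. Inka2, an inhibitor of a kinase that shapes the cytoskeleton, lay at 6.25 to 6.63 on all WT arrays and at 6.34 to 6.94 after Sham and 5.76 to 5.96 after AB in hearts labelled CXCR5-/-, a difference of -0.69 (SE 0.18, 95% interval -1.06 to -0.31). The histone gene H2ac4, of a family with near-identical copies, had a difference of -1.04 (SE 0.31), with WT AB arrays from 2.60 to 3.84. Fscb and Prl2c5 had higher responses, with differences of 0.59 each. Iqcn, Ceacam9, Slco1a6, Bpifb4, Ptprv, Selenov, Ccdc148 and Rnf225 had lower ones, with differences of -0.43 to -0.59. Except for Inka2 and Iqcn, these genes lay in the lower part of all probe sets by mean level, where signal over background limits the size of a change.

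Apart from Ccl19 (-1.15), described above, the members of the homeostatic chemokine axis given here had intervals that held 0. Cxcl13, the ligand of CXCR5, was at log2 levels of 3.41, 3.45 and 4.15 after Sham and 7.42, 4.32, 6.44 and 6.68 after AB in WT, and of 4.23, 3.81 and 3.69 after Sham and 7.10, 9.45, 5.72 and 4.92 after AB in hearts labelled CXCR5-/-. AB hearts of both genotypes were above the Sham hearts and spread over several units. Its difference of 0.34 had an SE of 1.10 and a 95% interval of -1.98 to 2.66, so that no statement on its direction can be made. Cxcr4, the receptor of CXCL12, had a difference of 0.57 (95% interval -0.10 to 1.24), and Ccr7, the receptor of CCL19, one of 0.08 (SE 0.14). Cxcr5 itself had a difference of 0.28 (95% interval -0.07 to 0.63).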

How the data were processed

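The log2 values per probe set were made by the authors from Affymetrix mouse gene ST arrays, 1 per mouse, with robust multi-array average, and deposited as 1 table. Its version and settings and the scan dates are not given in the sources used here. Values were used as deposited (0.742 to 13.5; array medians 5.19 to 5.30; correlations between arrays 0.975 to 0.993), and no 2 arrays shared more than 47 identical values. For the RNA isolation the paper names the SV total RNA system and the labels an RNeasy kit. Of 34760 probe sets, 21640 had 1 gene symbol, 1321 several and 11799 were not listed. Symbols were updated through the RefSeq table of GRCm38.p6 (21553 matched). A gene with several probe sets (954 of 19937) took the one with the highest mean over all arrays. Replicates are separate mice, and their number limits the precision.

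One fit of 4 group means was made with limma 3.58.1 in R 4.3.3 (lmFit, eBayes; 10 residual and 7.13 prior degrees of freedom), with moderated 95% intervals and the Benjamini-Hochberg adjustment over all genes at 0.05. The study tested AB against Sham by significance analysis of microarrays; limma was used because it gives the difference of responses with its error. Dim probe sets stayed in. The 48 gene lists (795 of 853 genes measured) and the genes named were chosen with earlier results of these data known, so lists are described by counts and medians, with no set test. Named are the 15 genes with the smallest p in each direction, the 2 with the smallest p of each list, genes that the paper names and list members that passed with AB; predicted genes, olfactory and immunoglobulin genes and small RNA genes were passed over, and genes named beyond this rule were chosen after their values were seen. The steps were tested on simulated data. Alternatives tried were array weights, 2 further variance models, leaving out probe sets under the 30 percentile, other scalings and summaries of probe sets, a replicate block, atrial and Alb covariates, and arrays left out. Upstream sequences are from RefSeq.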

Additional observations from a re-analysis of the deposited data

Results flagged for a closer look

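Of 344 groups of 4 AB arrays examined (124 named genes and 48 gene lists in both genotypes), 18 held an array that stood apart from the other 3 by Dixon's criterion, where chance gives about 1 in 20. Of genes described above, Edn1 lay at 6.58 on labelled CXCR5-/- AB replicate 4 and at 7.20 to 7.31 on the other 3, Stk17b at 7.71 on WT AB replicate 3 and at 7.35 to 7.41 on the others, H2-Ab1 at 8.92 on WT AB replicate 1 (others 9.31 to 9.34) and Ccn5 at 8.63 on labelled CXCR5-/- AB replicate 1 (others 8.71 to 8.72). Labelled CXCR5-/- AB replicate 4 was high in the atrial growth factor gene Bmp10, at 6.78 (others 3.17 to 3.29), and low in Ecm2, a matrix gene, at 7.79 (others 8.14 to 8.17).

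WT AB replicate 3 was high in the chemokine receptor gene Ccr9, at 4.36 (others 3.74 to 3.81), and in Prph, which encodes a neuronal filament, at 5.30 (others 5.07 to 5.09). Hrc, of calcium handling, lay at 9.86 on WT AB replicate 4 (others 10.19 to 10.21), Klhl34 at 5.34 on WT AB replicate 1 (others 5.53 to 5.57), and S100a8, of neutrophils, at 3.73 on WT AB replicate 2 (others 4.18 to 4.26). Slc4a1, an anion exchanger of red blood cells, was high on WT AB replicate 1, at 5.81 (others 5.45 to 5.51), and on labelled CXCR5-/- AB replicate 2, at 6.11 (others 5.46 to 5.51).

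Labelled CXCR5-/- AB replicate 2 was high in the centred mean of 3 lists: 0.33 for inflammatory chemokines (others 0.06 to 0.08), 0.37 for macrophage markers (others 0.11 to 0.15) and 0.38 for mast cell markers (others 0.08 to 0.13). WT AB replicate 3 was high in T and NK cell markers, at 0.33 (others -0.003 to 0.02). WT AB replicate 2 was low in the homeostatic chemokine axis, at -0.19 (others 0.20 to 0.24).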

How the results depend on the processing

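In none of the 27 alternative settings did a named gene's difference of responses pass, and the smallest adjusted p over all genes was 0.0775 (limma, without labelled CXCR5-/- Sham replicate 2). Of the values for 124 named genes, 3184 kept their direction and 17 in 12 genes turned. Leaving out single arrays gave 1002 to 2120 genes for AB in WT, 1890 to 3028 for AB in hearts labelled CXCR5-/-, and 466 to 693 genes at an unadjusted p under 0.05 for the difference, 229 to 380 higher and 176 to 408 lower. The WT count of 1858 was lowest without WT Sham replicate 3 (1002) or 2 (1025), and the count of lower differences was 176 without labelled CXCR5-/- Sham replicate 1. With array weights the counts were 3408 in WT, 4770 in hearts labelled CXCR5-/- and 1339 for the difference (712 higher, 627 lower). Leaving out dim probe sets gave 365 (153 lower), and all probe sets gave 976 (454 higher, 522 lower). Without the 3 Sham arrays highest in Myl7 there were 844 genes in hearts labelled CXCR5-/- and 372 for the difference (181 higher). Without the 4 arrays with Alb above 8, an alternative chosen after seeing the data, there were 353 in WT, 1507 in hearts labelled CXCR5-/- and 311 for the difference (156 higher, 155 lower). The cause of these moves was not tested.

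The differences that turned were Cxcl13 at -0.54 without labelled CXCR5-/- AB replicate 2 and -0.29 without WT AB replicate 2 (-0.54 to 0.97 over single arrays left out), Fmod at 0.13 with array weights, and Col27a1 at 0.0097 without WT Sham replicate 3 (-0.21 to 0.0097). Bmp10 was at -0.0053 without labelled CXCR5-/- AB replicate 4 (-0.0053 to 1.20), where it lay at 6.78 against 3.02 to 3.32 elsewhere. Leaving out the 4 arrays with Alb above 8, Nppb was at -0.18, Lum at -0.0063, Cry1 at 0.075, Slc4a1 at 0.11, Apoa1 at -0.30 and Apoa2 at -0.28. Without the 3 Sham arrays highest in Myl7, Fmod was at 0.011, Phkg1 at 0.040 and Mmp8 at 0.064. Cry1 was at 0.023 without WT Sham replicate 1 (-0.34 to 0.023), and Slc4a1 at 0.11 with the Alb covariate and 0.051 without labelled CXCR5-/- Sham replicate 1 (-0.29 to 0.051). Of 105 calls for named genes in an AB response, 53 held in every setting and 52 ended in some. List medians moved by less than the spread between arrays in 1103 of the alternatives and by more in 49, over 25 lists.

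Same-numbered arrays deviated from their group means with correlations of 0.13 to 0.22 between the AB groups and 0.026 to 0.45 between the Sham groups. Over all 19 pairs the correlations ran from -0.21 to 0.45, with 12 over 0.1. Among arrays labelled CXCR5-/-, 1 of 4 AB and 2 of 3 Sham arrays correlated best with their own number in WT. Not every pair passed 0.1, so the main fit did not pair mice by number. Whether same-numbered arrays shared a batch was not tested. The fit with the replicate block gave 2636 genes in WT, 3623 in hearts labelled CXCR5-/- and 776 genes at an unadjusted p under 0.05 for the difference (404 higher, 372 lower) and 0 after adjustment. With 3 or 4 arrays per group and the signal of dim probe sets near background, differences under about 0.34 in a single gene lie within the interval of the median gene.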
